A study of Mus musculus with 3 samples.

Results

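The levels of 9 miRNAs known from leukocytes or microglia were followed through early postnatal development of the mouse retina. They were taken by name, with no threshold on their values, and all 9 were among the 1915 mature miRNAs listed for each library. They are mmu-miR-142a-3p, mmu-miR-142a-5p, mmu-miR-223-3p, mmu-miR-150-5p, mmu-miR-155-5p, mmu-miR-146a-5p, mmu-miR-146b-5p, mmu-miR-21a-5p and mmu-miR-342-3p, written below without the prefix for mouse, and they come from 8 hairpins. Whole retinas of C57BL/6 mice, given as C57BL/6J in the methods of the study, were sampled at postnatal day 1 (P1), day 7 (P7) and day 17 (P17), the period in which the retinal vessels grow and the photoreceptors mature. The labels name no transgene and no treatment, and by them the groups differ in age alone. Retinas from 5 eyes were pooled into 1 library per age, so there is no replicate, and differences between ages cannot be set against a spread between animals. Since whole retinas were sequenced, fewer cells of a type and less RNA per cell cannot be told apart.

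MiRNAs guide Argonaute proteins to messenger RNAs, mostly through the seed near their 5′ end, and lower the output of those messengers. MiR-142 is made in cells of the blood lineage, microglia included. MiR-223 is abundant in neutrophils and other myeloid cells, and miR-150 in mature lymphocytes. The study also names miR-150 and miR-342 among anti-angiogenic miRNAs that are high in endothelial cells. It lists miR-155 with those that promoted angiogenesis, and cites earlier work in which miR-150 and miR-223 inhibited retinal neovascularization. MiR-155 and miR-146 are induced by inflammatory signals in macrophages and microglia, where miR-155 promotes the response and miR-146 restrains it by acting on the adaptors of Toll-like receptor signalling. MiR-21 and miR-342 are found in leukocytes but also in many other cells, so they do not mark blood cells on their own. Microglia enter the retina before birth and spread through its layers together with the growing vessels.

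The mature sequences are shown since the seed sets which messengers a miRNA can pair with, and since near-identical sequences can share reads. Of the 9 miRNAs, 8 were matched by name to RefSeq sequences of GRCm38.p6, and miR-150-5p is named only. Each is written 5′ to 3′ with the seed, bases 2 to 8, in capitals.
miR-142a-3p: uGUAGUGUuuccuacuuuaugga
miR-142a-5p: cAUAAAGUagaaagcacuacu
miR-223-3p: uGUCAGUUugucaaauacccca
miR-155-5p: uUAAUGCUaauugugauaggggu
miR-146a-5p: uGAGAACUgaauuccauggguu
miR-146b-5p: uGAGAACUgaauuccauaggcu
miR-21a-5p: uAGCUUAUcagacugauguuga
miR-342-3p: uCUCACACagaaaucgcacccgu

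MiR-146a-5p and miR-146b-5p shared the seed GAGAACU and 20 of 22 bases. Counted from 1 at the 5′ end, miR-146b-5p differed from miR-146a-5p by G18A and U21C, both outside the seed. A read that ends before base 18 would fit both, so their counts could have been split or mixed. The seed of miR-21a-5p was shared with miR-21c, which had a single read at P1 and at P7 and 6 reads at P17. The seeds of the other 5 miRNAs with a sequence occurred in no other listed mature miRNA that was matched to the RefSeq table.

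The hairpins were placed with GENCODE and RefSeq on GRCm38, the build that mm10 names. Mir142, on the plus strand of chromosome 11, spans 87756864 to 87756927 in an intron of the non-coding gene Mir142hg. The hairpin of miR-142b lies opposite it, and mature miR-142b is complementary to part of miR-142a-3p, but miR-142b had no read in any library. Mir21a, on the minus strand of chromosome 11, spans 86584067 to 86584158 inside untranslated sequence of exon 12 of a Vmp1 transcript. Mir146, which gives miR-146a, spans 43374397 to 43374461 on the minus strand of chromosome 11, in no other annotated gene. Mir146b on chromosome 19 spans 46342762 to 46342870 in an intron of Mfsd13a. Mir155 on chromosome 16 spans 84714140 to 84714204 in exon 2 of the non-coding gene Mir155hg. Mir342 on chromosome 12 spans 108658620 to 108658718 in an intron of Evl. Mir223 on chromosome X spans 96242817 to 96242926 in exon 2 or 3 of the transcripts of the non-coding antisense gene F630028O10Rik. The last 4 hairpins and their host genes are on the plus strand.

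The libraries held 11426320 to 12759995 miRNA reads. Levels are given in RPM, the reads of a miRNA scaled by the total miRNA reads of its library, so that 1 read was worth 0.0784 to 0.0875 RPM and a miRNA with no read could still be present at up to 0.235 to 0.263 RPM (3 reads). Intervals are at 95% and are computed for the error of counting alone. Amplified reads that carry no molecular identifier are not independent, so the intervals may be too narrow even for that error. MiRNAs known from retinal neurons were among the most abundant, though not all of those listed. MiR-182-5p, miR-183-5p, miR-96-5p, miR-124-3p and miR-9-5p, known from photoreceptors and retinal neurons, summed to 223656, 432211 and 387928 RPM at P1, P7 and P17. MiR-124-3p was the least abundant of them, in places 68, 45 and 18 by reads. An RPM value is a share of a fixed total, and the median log2(RPM + 1) change of the 648 miRNAs that averaged 1 RPM or more was -0.87 from P1 to P7 and -0.91 from P1 to P17. Median-of-ratios scaling, which centres the typical miRNA, brought the median to -0.037 and 0.0066. The change of each of the 9 from P1 to P17 is therefore also given relative to the median or under that scaling.

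The 9 miRNAs differed widely in level, and their order changed with age. MiR-21a-5p alone made up 87.0%, 87.6% and 85.0% of their summed reads at the 3 ages. Summed, the 9 took 0.750%, 0.652% and 0.606% of all miRNA reads. By number of reads miR-21a-5p stood in places 25, 21 and 28 among all miRNAs. The next in the order were miR-146b-5p, in places 132, 104 and 91, and miR-342-3p, in places 135, 121 and 154. MiR-150-5p moved up, from place 783 to 529 and then 321. MiR-223-3p stood last of the 9 at every age.

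**Figure D1:**
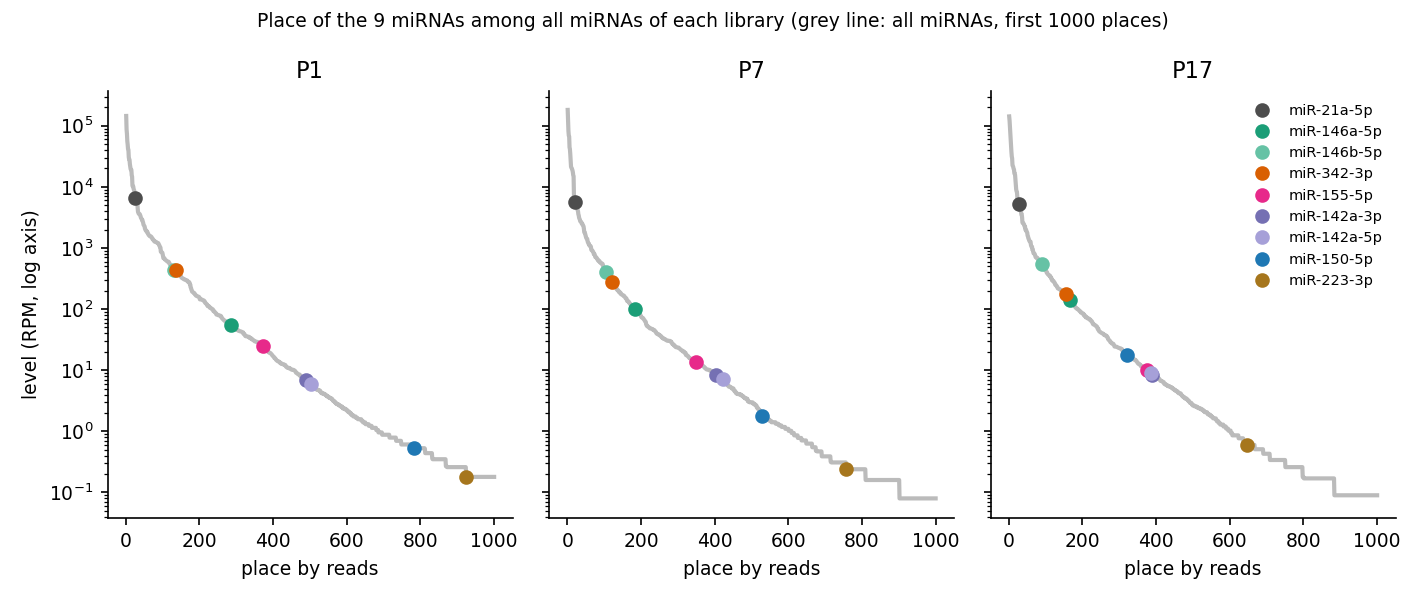
Place of the 9 miRNAs (coloured points) among all miRNAs of each library, with the place by reads on the horizontal axis and the level in RPM on a logarithmic vertical axis. The grey line holds the first 1000 places of that library. MiR-21a-5p stays near the top, between places 21 and 28, while miR-150-5p moves up from place 783 at P1 to 321 at P17.

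Each read stands for 1 mature miRNA of about the same length, so levels were compared between miRNAs without a length correction, and unequal ligation of adaptors was not corrected. At P1 miR-146b-5p and miR-342-3p could not be ordered beyond counting error, with a ratio of 1.00 (exact interval 0.963 to 1.04). By P17 miR-146b-5p had 3.09 times the reads of miR-342-3p (2.94 to 3.24). The arms of miR-142a were neighbours at every age and did not differ beyond counting error at any of them. MiR-150-5p was not separable from miR-223-3p at P1, where they had 6 and 2 reads. At P17 it had passed both arms of miR-142a as well as miR-155-5p, and exceeded the last by a ratio of 1.77 (1.40 to 2.24). MiR-155-5p and miR-142a-5p, neighbours at P17 with 117 and 105 reads, could not be ordered.

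**Figure D2:**
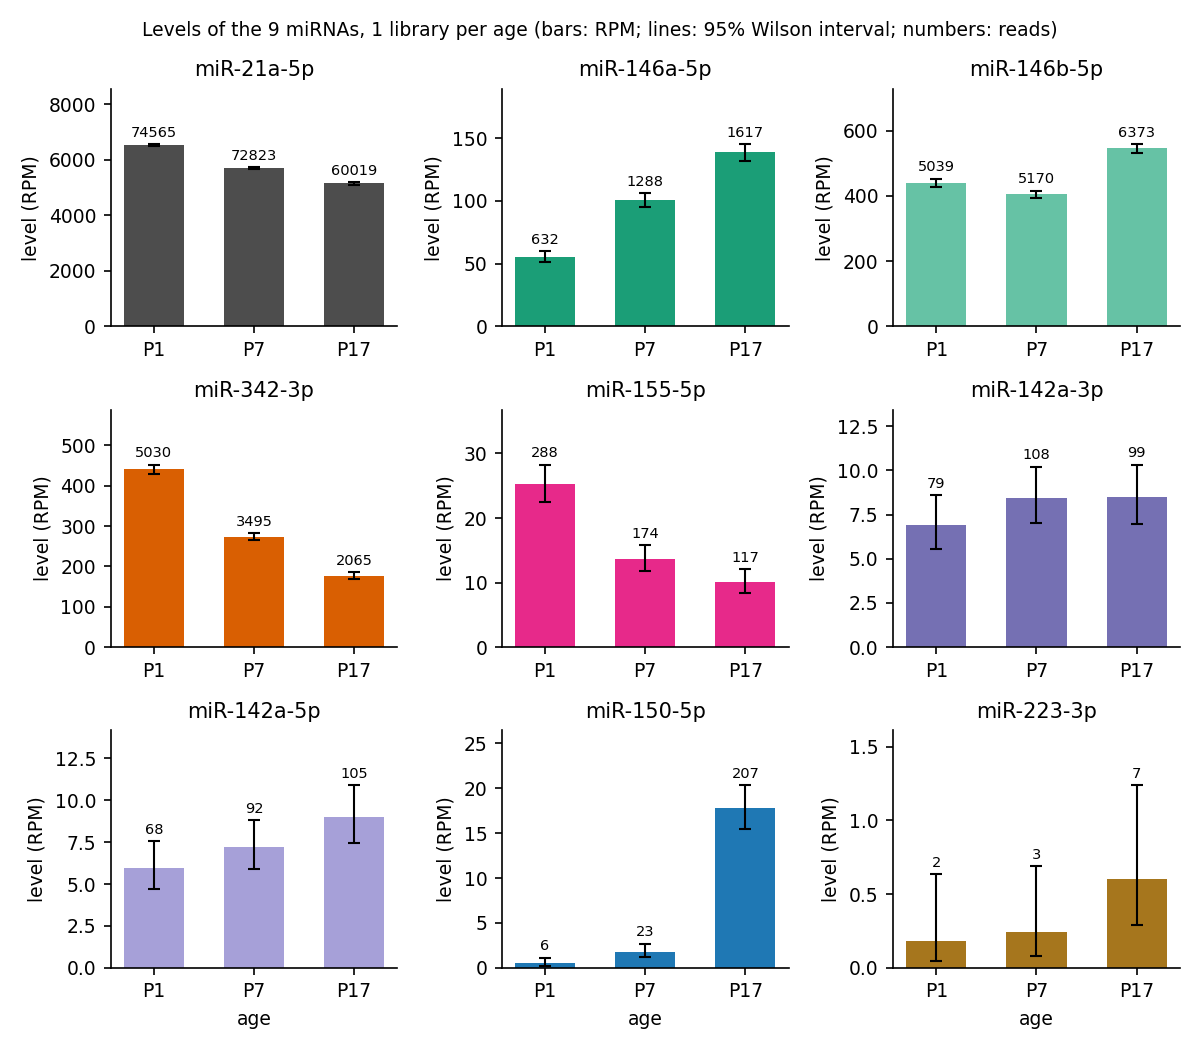
Level in RPM of each miRNA in the P1, P7 and P17 library, with 95% Wilson intervals as lines and the number of reads above each bar. Every vertical axis starts at 0 and has its own range, so heights compare ages and not miRNAs. MiR-342-3p and miR-155-5p are highest at P1, whereas miR-146a-5p and miR-150-5p are highest at P17.

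MiR-142a, the blood-lineage miRNA that microglia also make, was present at a low level that differed little between adjacent ages on the RPM scale. MiR-142a-3p had 79, 108 and 99 reads in the P1, P7 and P17 libraries, or 6.91, 8.46 and 8.49 RPM. MiR-142a-5p, the other strand of the same hairpin, had 68, 92 and 105 reads, or 5.95, 7.21 and 9.01 RPM. The intervals of adjacent ages overlapped for both arms. On the RPM scale the log2 ratio of P17 to P1 was 0.30 for the 3p arm (exact interval -0.14 to 0.74). For the 5p arm it was 0.60 (0.14 to 1.06), so on this scale only the 5p interval left out 0. The log2 ratio of the 5p to the 3p arm changed by 0.30 (-0.34 to 0.95), so the arms were not separable. Relative to the median of all miRNAs the log2(RPM + 1) changes were 1.17 for the 3p arm and 1.44 for the 5p arm. Median-of-ratios scaling put them at 1.18 and 1.43, in the same direction. The intervals of the RPM ratios do not apply to these changes.

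MiR-223-3p, the myeloid miRNA, was at the limit of detection. It was read 2, 3 and 7 times in the P1, P7 and P17 libraries, or 0.18, 0.24 and 0.60 RPM, and its mean of 0.34 RPM did not pass the filter of 1 RPM. The ratio of P17 to P1 was 3.43 with an exact interval from 0.653 to 33.8, so no change was detectable at this depth. Its log2(RPM + 1) change from P1 to P17 was 0.44, and 0.70 with median-of-ratios scaling. Its other arm, miR-223-5p, had 2, 1 and 0 reads. At P17 miR-142a-3p had 14.1 times the reads of miR-223-3p (6.61 to 36.1).

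MiR-150-5p, known from mature lymphocytes and named by the study for endothelial cells too, showed the largest change of the 9. It was read 6 times in the P1 library, 23 times in the P7 library and 207 times in the P17 library, or 0.53 RPM (Wilson interval 0.241 to 1.15), 1.80 RPM (1.20 to 2.70) and 17.8 RPM (15.5 to 20.3). The intervals of the 3 ages did not overlap. The P7 level exceeded the P1 level by a log2 ratio of 1.78 (exact interval 0.44 to 3.37), and the P17 level exceeded the P7 level by 3.30 (2.68 to 3.99), so most of the change came after P7. From P1 to P17 it was 5.08 (3.93 to 6.54), a 33.8-fold difference with an interval from 15.3-fold to 93.2-fold that reflects the 6 reads at P1. On log2(RPM + 1), where changes of rare miRNAs come out smaller, the value was 3.62, and only 3 of the 648 miRNAs had a larger upward change. With median-of-ratios scaling the whole change was 4.22 on this scale. The level was higher at each later age with RPM, median-of-ratios and TMM scaling and with a total that leaves out the most abundant miRNAs. Since its mean of 6.69 RPM rests mostly on P17, it passed the filter mainly through the age at which it is high.

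Markers of blood and vessels differed between the ages too. Of 7 miRNAs known from red blood cells all were detected at every age, and their summed level was 163, 118 and 161 RPM, leaving out both arms of miR-486b because its 5p arm carries the read counts of miR-486a-5p. Among these red-cell miRNAs miR-451a had 520, 149 and 325 reads, or 45.5, 11.7 and 27.9 RPM, and miR-144-3p had 13, 15 and 52 reads. The course of these markers depended on the scaling, since miR-451a changed from P1 to P17 by -0.69 on the log2(RPM + 1) scale and by 0.33 with median-of-ratios scaling, and miR-486a-5p by 0.12 and 1.16. The reads of miR-150-5p relative to those of miR-451a went from a ratio of 0.0115 to 0.154 and then 0.637. On the log2 scale this ratio changed by 5.79 from P1 to P17 (exact interval 4.61 to 7.26). MiR-451a was the only red-cell miRNA of the list that was lower at P17 than at P1 on the RPM scale. The log2(RPM + 1) changes of miR-144-3p and miR-144-5p from P1 to P17 were 1.35 and 0.84, so a ratio to them would have changed less. The endothelial miR-126a arms summed to 1261, 3643 and 8530 RPM, and the mural-cell miRNAs miR-143-3p and miR-145a-5p to 195, 376 and 1492 RPM. None of these 4 was at 0 in any library. The part of blood and of vessel cells in the levels of the 9 miRNAs was not tested.

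MiR-155-5p, which promotes inflammatory responses, was highest in the P1 library on the RPM scale. Its 288, 174 and 117 reads in the P1, P7 and P17 libraries made 25.2, 13.6 and 10.03 RPM. The intervals of P7 and P17 overlapped slightly, and both lay below that of P1. Between P1 and P7 the log2 ratio was -0.89 (exact interval -1.17 to -0.61), and between P7 and P17 it was -0.44 (-0.79 to -0.10). Over the whole period it was -1.33 (-1.65 to -1.01). Relative to the median of all miRNAs the change from P1 to P17 was only -0.34. With median-of-ratios scaling the first step was 0.071, in the opposite direction, and the whole change -0.27. The lower level of miR-155-5p at P7 thus depended on the scaling.

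The miR-146 pair, which restrains Toll-like receptor signalling, behaved differently from miR-155-5p. MiR-146a-5p had 632, 1288 and 1617 reads in the P1, P7 and P17 libraries, or 55.3, 101 and 139 RPM, with no overlap of the intervals. Its first step was a log2 ratio of 0.87 (exact interval 0.73 to 1.01), its second one of 0.46 (0.35 to 0.57), and the whole change one of 1.33 (1.19 to 1.46), or 2.51-fold. The direction was the same under the 3 other scalings tried, and median-of-ratios scaling gave a log2 change of 1.80 in the first step and 2.34 from P1 to P17.

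MiR-146b-5p was the more abundant of the pair, with 5039, 5170 and 6373 reads, or 441, 405 and 547 RPM. On the RPM scale it was lowest at P7, by a log2 ratio to P1 of -0.12 (-0.18 to -0.07), whereas median-of-ratios scaling made this step 0.84. From P7 to P17 its log2 ratio was 0.43 (0.38 to 0.49), close to that of miR-146a-5p. From P1 to P17 it was 0.31 (0.26 to 0.36), and median-of-ratios scaling gave a log2 change of 1.35. The summed level of both, and so of the seed GAGAACU, was 496, 506 and 685 RPM at the 3 ages. MiR-146a-5p gave 11.1% of these reads at P1 (exact interval 10.3 to 12.0), 19.9% at P7 (19.0 to 20.9) and 20.2% at P17 (19.4 to 21.1). This share does not depend on the scaling. The balance of the pair thus differed between P1 and P7 but not detectably between P7 and P17, where the log2 ratio of miR-146a-5p to miR-146b-5p changed by 0.026 (-0.093 to 0.15).

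MiR-21a-5p, which is not confined to leukocytes, had 74565, 72823 and 60019 reads, or 6526, 5707 and 5148 RPM. Its log2 ratio from P1 to P17 was -0.34 (exact interval -0.36 to -0.33) on the RPM scale, whereas the log2(RPM + 1) change was 0.70 with median-of-ratios scaling, 0.67 with TMM factors and 0.037 with a total that leaves out the most abundant miRNAs. Its direction from P1 to P17 was therefore set by the scaling. The step from P7 to P17 was -0.15 (-0.16 to -0.13) and stayed below 0 under each scaling.

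MiR-342-3p, from an intron of Evl, had 5030, 3495 and 2065 reads, or 440.2, 274 and 177 RPM, with no overlap of the intervals. Its steps were log2 ratios of -0.68 (-0.75 to -0.62) to P7 and -0.63 (-0.71 to -0.55) from there to P17, and the whole change was -1.31 (-1.39 to -1.24). With median-of-ratios scaling it was 0.28 higher at P7 than at P1 and 0.27 lower at P17 than at P1 on the log2 scale, so the direction of the first step turned. Relative to the median of all miRNAs its change from P1 to P17 was -0.40.

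**Figure D3:**
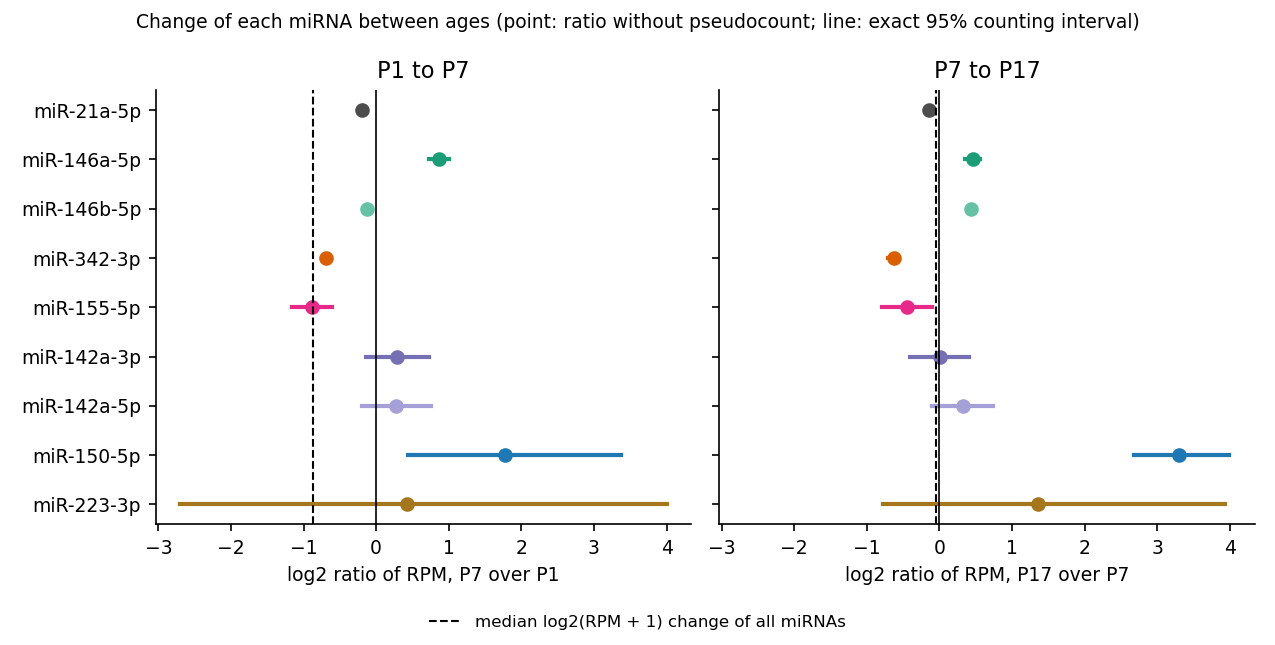
Log2 ratio of RPM between adjacent ages for each miRNA, without a pseudocount, as points with exact 95% intervals of counting error as lines. The dashed line marks the median log2(RPM + 1) change of all 648 miRNAs past the filter, at -0.87 in the first step and -0.052 in the second. MiR-150-5p stands farthest to the right in both steps, and the interval of miR-223-3p spans 0 in both.

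A change was called where it was over 2-fold on the log2(RPM + 1) scale, with no p-value, and few of the 9 were called in either step. The filter kept 8 of them, all but miR-223-3p. Between P1 and P7 none of the 8 was over 2-fold higher, against 3.09% of the 648 miRNAs, and none was over 2-fold lower, against 44.8%. With a pseudocount of 0.1 RPM or none, miR-150-5p was over 2-fold higher at P7 as well. Between P7 and P17 only miR-150-5p was over 2-fold higher, against 14% of all, and none was over 2-fold lower, against 11.6%. Between P1 and P17 miR-150-5p and miR-146a-5p were over 2-fold higher, against 10.5% of all, and miR-155-5p and miR-342-3p were over 2-fold lower, against 46.8%. The median log2(RPM + 1) change from P1 to P17 was 0.29 for the 8, 0.31 for all 9 and -0.91 for the 648.

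The balance shifted with the scaling. Under median-of-ratios scaling 4 of the 8 were over 2-fold higher at P7 than at P1, against 9.57% of all miRNAs. None was over 2-fold lower, against 11.4%. These 4 were miR-146a-5p, miR-150-5p and both arms of miR-142a. The arms lay just past the 2-fold limit, with log2 changes of 1.09 (3p) and 1.06 (5p). On the RPM scale their log2 ratios in this step were 0.29 and 0.28, and the exact intervals spanned 0, at -0.14 to 0.73 and -0.19 to 0.75. A change of scaling shifts an interval together with its ratio, so these intervals do not apply to the median-of-ratios changes. MiR-150-5p rested on 6 reads at P1 and 23 at P7. With median-of-ratios scaling 5 of the 8 were over 2-fold higher at P17 than at P1, against 25.5% of all miRNAs. None was over 2-fold lower, against 24.1%. These 5 were miR-150-5p, miR-146a-5p, miR-146b-5p and both arms of miR-142a, which share a hairpin. The median of the 8 was then 1.26, and that of the 648 was 0.0066.

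**Figure D4:**
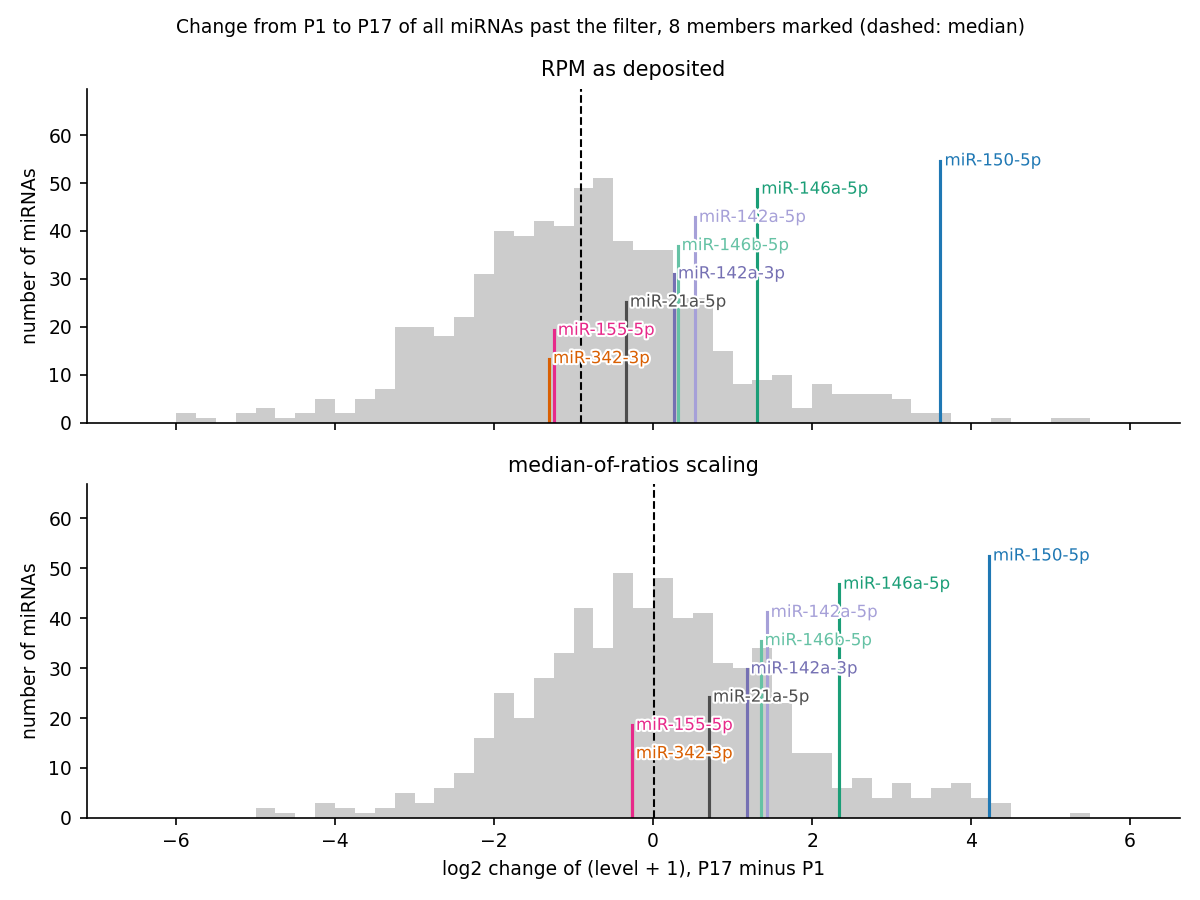
Number of miRNAs by log2 change of (level + 1) from P1 to P17, for all 648 miRNAs past the filter, with the RPM values above and median-of-ratios scaling below. Coloured lines mark the 8 of the 9 miRNAs that passed the filter, with arbitrary heights, and the dashed line marks the median of all, at -0.91 above and 0.0066 below. The line of miR-342-3p is hidden behind that of miR-155-5p below, and both miRNAs lie to the left of the dashed line in each panel, while the other 6 lie to its right.

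Ratios between miRNAs of the same library do not depend on the scaling, and by them some of the 9 changed unequally while others could not be told apart. Against miR-142a-3p, the ratio of miR-150-5p changed by 4.78 on the log2 scale from P1 to P17 (exact interval 3.52 to 6.31) and that of miR-146a-5p by 1.03 (0.56 to 1.49). The ratio of miR-146b-5p to miR-142a-3p changed by 0.013 (-0.44 to 0.46), that of miR-142a-5p by 0.30 (-0.34 to 0.95) and that of miR-223-3p by 1.48 (-0.97 to 4.82), so the changes of these 3 were not separable from that of miR-142a-3p beyond counting error. The ratios of miR-155-5p and miR-342-3p to miR-142a-3p changed by -1.63 (-2.18 to -1.07) and -1.61 (-2.06 to -1.16). MiR-155-5p thus had 3.65 times the reads of miR-142a-3p at P1 and 1.18 times at P17. The ratio of miR-155-5p to miR-342-3p, chosen after the values were seen, was 0.0573, 0.0498 and 0.0567, and its log2 change from P1 to P17 was -0.015 (-0.35 to 0.31). MiR-146a-5p had 2.19 times the reads of miR-155-5p at P1, 7.40 times at P7 and 13.8 times at P17.

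Without miR-21a-5p, the make-up of the other 8 miRNAs shifted from miR-342-3p towards the miR-146 pair. MiR-342-3p gave 45.1% of their reads at P1 (exact interval 44.2 to 46.1), 33.8% at P7 (32.8 to 34.7) and 19.5% at P17 (18.7 to 20.3). MiR-146b-5p gave 45.2%, 49.9% and 60.2%, and miR-146a-5p gave 5.67%, 12.4% and 15.3%. MiR-150-5p made up 0.0538% at P1 and 1.95% at P17.

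In most of the 8 hairpins 1 arm held nearly all reads, but not in miR-142a. MiR-142a-3p gave 53.7% of the reads of its hairpin at P1 (exact interval 45.3 to 62.0), 54.0% at P7 (46.8 to 61.1) and 48.5% at P17 (41.5 to 55.6), so neither arm dominated at any age. For miR-21a and miR-146b the other arm had 7 to 26 reads in each library, and miR-146a-3p had none in any library. MiR-150-3p had 0, 1 and 5 reads. The arms of miR-223 had too few reads to be ordered at P1 and P7, where miR-223-3p gave 50% (6.76 to 93.2) and 75% (19.4 to 99.4).

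The minor arms of miR-342 and miR-155 had their most reads at P1, also relative to the major arms. MiR-342-5p had 503, 245 and 133 reads, so that miR-342-3p had 10, 14.3 and 15.5 times as many. The log2 of this ratio changed by 0.51 in the first step (exact interval 0.28 to 0.75) and by 0.12 in the second (-0.20 to 0.45). MiR-155-3p had 24, 4 and 1 reads. The ratio of miR-155-5p to it changed by 1.86 on the log2 scale from P1 to P7 (0.28 to 3.87) and by 3.29 from P1 to P17 (0.63 to 8.66), which rests on 1 read at P17. These ratios are free of the scaling of the libraries.

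**Figure D5:**
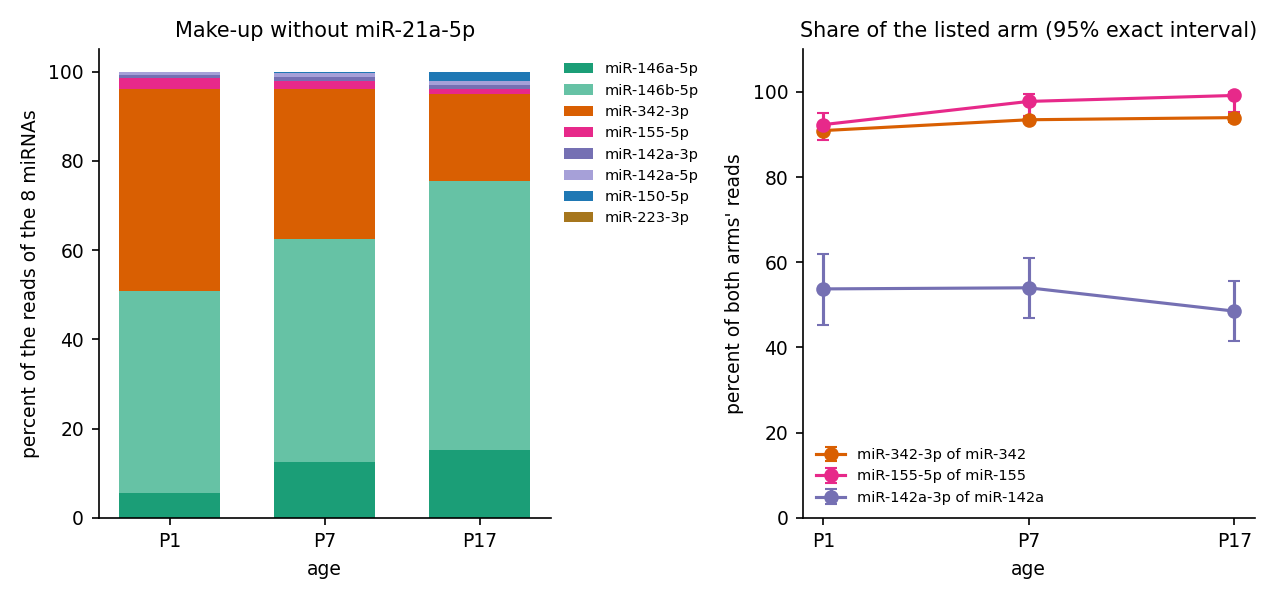
Left, percent of the summed reads of the 8 miRNAs other than miR-21a-5p that each gave at P1, P7 and P17. Right, percent of the reads of both arms given by miR-342-3p, miR-155-5p and miR-142a-3p, with exact 95% intervals. The share of miR-342-3p on the left shrinks from 45.1% to 19.5%, and on the right only miR-142a lies near an even split.

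Other miRNAs known from macrophages or lymphocytes differed widely in level. Of 6 listed, 3 passed the filter, and from P1 to P17 1 of these 3, miR-132-3p, was over 2-fold higher on the RPM scale, against 10.5% of all miRNAs, and none was over 2-fold lower, against 46.8%. Their log2(RPM + 1) changes were 2.13 for miR-132-3p, 0.96 for miR-181a-5p and -0.47 for miR-147-3p, and median-of-ratios scaling made them 3.15, 2.00 and 0.20, so that the direction of miR-147-3p turned. MiR-511, which lies within the gene of the macrophage mannose receptor, had no read of its 5p arm in any library and 1 read of its 3p arm, at P17. MiR-147-3p, induced by Toll-like receptor signals in macrophages, had 26, 6 and 16 reads, or 2.28, 0.47 and 1.37 RPM. MiR-132-3p, which is also regulated by activity in neurons, had 333, 582 and 1529 reads, or 29.1, 45.6 and 131 RPM. MiR-181a-5p, known from thymocytes but abundant in neurons, had 49016, 68813 and 95134 RPM.

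The miRNAs with the most similar course were looked up for the 3 most abundant of the 9. Likeness was measured as the Euclidean distance between the log2(RPM + 1) changes from P1 over the 3 libraries, outside the 9 and past the filter. Nearest to miR-21a-5p were miR-210-5p (distance 0.0761) and miR-3473e (0.0858). Nearest to miR-146b-5p were miR-23b-3p (0.105), with 299, 262 and 350.2 RPM at P1, P7 and P17, and miR-5129-3p (0.114). Nearest to miR-342-3p were miR-3066-5p (0.0221), with 13.2, 7.76 and 4.80 RPM, and miR-362-5p (0.0300), with 49.7, 30.6 and 19.9 RPM. With 3 points per miRNA, close matches are easily found among 648.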

How the data were processed

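Small RNA libraries of mouse retina were sequenced at P1, P7 and P17, with 1 library per age. The authors trimmed 50-nt reads and aligned them to mm10. The study's methods name HISAT2, whereas the submitters' processing notes list FastQC and BWA, and the miRNA annotation and counting rule are not given in the sources used here. For each mature miRNA the authors deposited a read count and an RPM value, which equals the count over the summed counts of the library to within 0.0192 RPM. With 11426320 to 12759995 reads per library, rare miRNAs are imprecise.

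From these files, log2(RPM + 1) was computed and miRNAs averaging 1 RPM or more were kept for fold calls. RPM intervals are 95% Wilson intervals, and ratios have exact binomial or exact conditional intervals. With 1 library per age no test was run. Groups came from the age labels. The 9 members, the lists of related miRNAs and the cell markers were chosen with earlier results of these data known. The miRNAs named are the members, the other arms of their hairpins, those lists, and for the 3 most abundant members the 2 miRNAs with the nearest course. The alternatives were pseudocounts of 0.1 and 5 RPM, no filter and a filter of 10 RPM, folds of 1.5 and 4, median-of-ratios factors (1.50, 0.862 and 0.743, from 644 miRNAs), TMM factors from edgeR (1.59, 0.801 and 0.785) and a total that omits each miRNA among the top 10 of a library. Ratios without a pseudocount were added after seeing the data. The fold calls and the exact intervals of ratios between ages were tested on simulated counts with counting error alone. The other scalings and the ratios between miRNAs were not tested in this way. The tools were edgeR 4.0.16 in R 4.3.3, and scipy 1.17.1, pandas 2.3.3, numpy 2.4.6 and matplotlib 3.10.9 in Python 3.11.15.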

Additional observations from a re-analysis of the deposited data

How the results depend on the processing

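The scaling set the number of members over 2-fold apart. Causes of these shifts were not tested. With median-of-ratios or TMM factors, 4 members were over 2-fold higher at P7 than at P1 (none with RPM), and at P17 against P1 5 were higher and 0 lower (2 and 2 with RPM). Their median log2 change from P1 to P17 was 1.26 and 1.23 (0.29 with RPM), and that of their summed reads was 0.74 and 0.71 (-0.31 with RPM). A total that omits each miRNA among the top 10 of a library gave 2 higher at P7, 0 lower at P17 than at P1 and 0.070 for the sum. A pseudocount of 0.1 RPM, or none (added after seeing the data), gave 1 higher at P7, which was miR-150-5p. A filter of 10 RPM, which removes miR-150-5p and miR-142a, left 0 higher at P17 than at P7, 1 higher than at P1 and a median of -0.34. A fold of 1.5 gave 2 higher and 2 lower at P7 and 1 lower at P17 than at P7. A fold of 4 left 1 higher and 0 lower at P17 than at P1. Of 162 values for single members, 50 moved beyond counting error, and no change over 2-fold turned its direction. Depth limits miR-223-3p, with 2 to 7 reads, and miR-150-5p at P1. No paired analysis was possible because the study holds 1 library per age.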

Other observations

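Relatives of miR-21a-5p held few reads. In the P1, P7 and P17 libraries miR-21b had 12, 11 and 30 reads and miR-21c had 1, 1 and 6, against 74565, 72823 and 60019 of miR-21a-5p. Over the 22 bases compared, miR-21b differs from miR-21a-5p by C4U, G18A, G21U and A22C, counted from 1 at the 5′ end, and the first of these lies in the seed. MiR-21c has the seed of miR-21a-5p and differs from it over 21 bases by A16G, G18A, U19C, U20A and G21A. Whether their reads are variants of miR-21a-5p was not tested.

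MiRNAs known from other tissues were detected as well, and the source of their reads was not tested. MiR-204-5p, miR-211-5p, miR-184-3p, miR-205-5p and miR-200b-3p, known from pigment epithelium, ciliary body or surface epithelium, summed to 15328, 7347 and 14906 RPM at P1, P7 and P17. Most of this sum was miR-204-5p, with 14661.5, 6967 and 9019 RPM, and the members went different ways. From P1 to P17 the log2(RPM + 1) change was 3.27 for miR-211-5p and 2.49 for miR-184-3p. It was -0.70 for miR-204-5p, -1.13 for miR-205-5p and -1.89 for miR-200b-3p. The muscle miRNAs miR-1a-3p, miR-133a-3p and miR-206-3p summed to 132, 90.0 and 240.1 RPM, and the liver miRNA miR-122-5p had 5.78, 2.27 and 3.60 RPM.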
